A study of Mus musculus with 2 samples.

Results

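The genes described here encode the sorting nexins, Rab GTPases, SNARE proteins and related sorting machinery of mouse endosomes. They were taken by name alone: every gene whose symbol on the array began as Snx, Rab, Vps, Chmp, Stx, Stxbp, Vamp, Stam, Tbc1d, Rabgap, Rabep or Ehd, with the digits or letters usual in these families, the gene Hgs, and the subunits of the adaptor complexes AP-1 to AP-4. This rule found 177 genes, read by 190 probes, among the 11484 genes and 13989 probes of the table. Gene expression was measured on a 1-colour oligonucleotide microarray in mouse cells of embryonic origin labelled with the strain C57/ICR. The small-molecule-generated (SMG) stem cells were at passage 5 in ES medium, and the parental cells they were set against were at passage 1 in medium with FBS (fetal bovine serum). Although the design text speaks of 3 replicates, 1 column was analysed here for each group, which allows no test and no p-value. Treatment, passage and medium differed together and cannot be told apart, and in bulk RNA fewer cells of a type cannot be told apart from less RNA per cell.

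Cargo taken up from the cell surface reaches early endosomes, from where it is sent back to the surface, on to the trans-Golgi network, or into late endosomes and lysosomes. Rab GTPases give each membrane its identity and are switched off by TBC-domain GTPase activators. Sorting nexins and retromer shape the tubules that carry cargo out, and the ESCRT complexes bud cargo inward for degradation. Tethers and SNAREs then dock and fuse the vesicles. In embryonic stem cells the same machinery recycles growth factor receptors and adhesion molecules, while fibroblasts are known for abundant caveolae.

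Past 2-fold, more of these genes were lower than higher in SMG cells, while by sign alone they were split nearly evenly. Of the 177 genes, 168 lay above the floor in 1 or both samples, the floor being the 25th percentile of each column (93.4 in SMG cells and 93.8 in parental cells). Among these 168, 21 (12.5%) were 2-fold or more higher in SMG cells, where 22.1% of all 9766 genes above the floor were. The number 2-fold or more lower was 45 (26.8%), where 22.6% of all genes were, and 102 differed by less. By sign alone, 86 of the 168 (51.2%) lay below 0, where 45.8% of all genes did, and 82 lay above it. At 4-fold or more, 8 of the 168 (4.76%) were higher, where 7.52% of all genes were, and 17 (10.1%) were lower, near the 10.3% of all genes. The median log2 difference, SMG minus parental cells, was -0.12 over the 168 genes and 0.12 over all genes. Its sign is not settled, since it was 0.045 with no floor and -0.030 with the column median as the floor. When each value under the floor was raised to the floor, 19 genes were higher and 42 lower, beside 20.5% and 20.8% of all genes. The other 9 genes (Rab3c, Rab5b, Rab9b, Rab27a, Rab37, Tbc1d2, Tbc1d32, Vamp5 and Vps13a) were at or under the floor in both samples and were given no fold. Where 1 value lay under its floor, the fold was computed against that floor and is written as "at least".

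The error of these values is that of single probes. In 612 genes of the array that had 2 usable probes, single probes scattered around the log2 difference of their gene with an SD of 1.05, or 2.07-fold, and the log2 differences of the 2 probes correlated at 0.54 across these genes. Of the 66 genes past 2-fold, 42 lay within 2 such SDs (4.30-fold) as measured, so most single calls are within the error of their probe at that width. That SD does not cover differences between cultures. Of the 177 genes, 13 had 2 probes, and in 8 of these both probes lay on the same side of no difference.

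**Figure D1:**
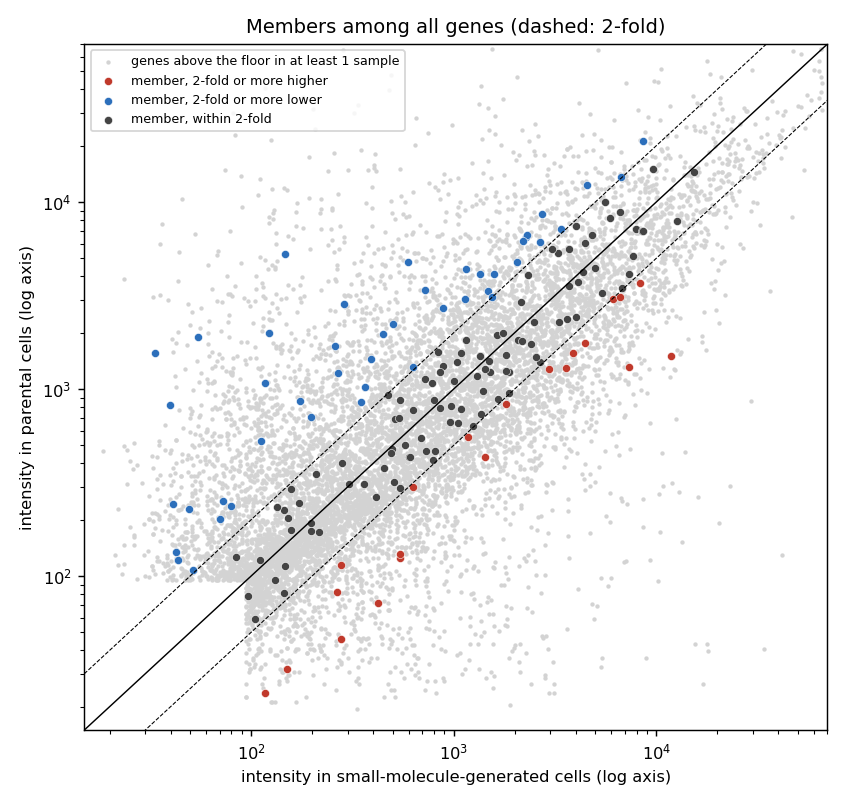
Normalised intensity of each gene in SMG cells (x axis) and parental cells (y axis), both on log axes. Grey points are the 9766 genes above the floor in either sample, coloured points are the 168 endosomal genes, and the dashed lines mark 2-fold. The 45 lower genes (blue) reach farther from the diagonal than the 21 higher ones (red).

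The identity of the cells was read from marker genes. Of 9 measured pluripotency markers 8 were higher in SMG cells, with summed intensities of 124119 in SMG cells and 770 in parental cells. The exception was Nanog, at 94.7 in SMG cells and 77.7 in parental cells. All 5 measured markers of fibroblasts and mesenchyme were lower, with sums of 769 in SMG cells and 138645 in parental cells. Macrophage markers were lower in 3 of 4, with sums of 671 in SMG cells and 5985 in parental cells; C1qa was at 35.7 in SMG cells and 3198 in parental cells. All 3 measured epithelial markers were higher, with sums of 8380 in SMG cells and 320 in parental cells. Of 3 endothelial markers above the floor 1 was higher and 2 were within 2-fold. The higher one, Vwf, was at 661 in SMG cells and 36.7 in parental cells, at least 7.05-fold higher. Of 2 trophoblast markers 1 was within 2-fold and the other, Ascl2, was at 336 in SMG cells and 39.7 in parental cells, at least 3.58-fold higher. What part these differences in cell type had in the results below was not tested.

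The largest differences were found in different branches of the pathway. Ehd2, an ATPase that sits at the neck of caveolae, was at 147 in SMG cells and 5291 in parental cells, 36.0-fold lower. Rab32, a GTPase of lysosome-related organelles and mitochondria, was under the floor in SMG cells (54.8 in SMG cells against 1888 in parental cells), at least 20.2-fold lower. Snx7, a sorting nexin with a membrane-bending BAR domain, likewise lay under the floor at 33.7 in SMG cells and 1553 in parental cells, at least 16.6-fold lower. In the opposite direction stood Stxbp2 (Munc18-2), which holds syntaxins ready for fusion, at 11883 in SMG cells and 1502 in parental cells, 7.91-fold higher. Next, with values under the floor raised to it, was Tbc1d13, a GTPase activator of Rab35, at 7315 in SMG cells and 1307 in parental cells, 5.60-fold higher. Each of these 5 genes was read by 1 probe.

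**Figure D2:**
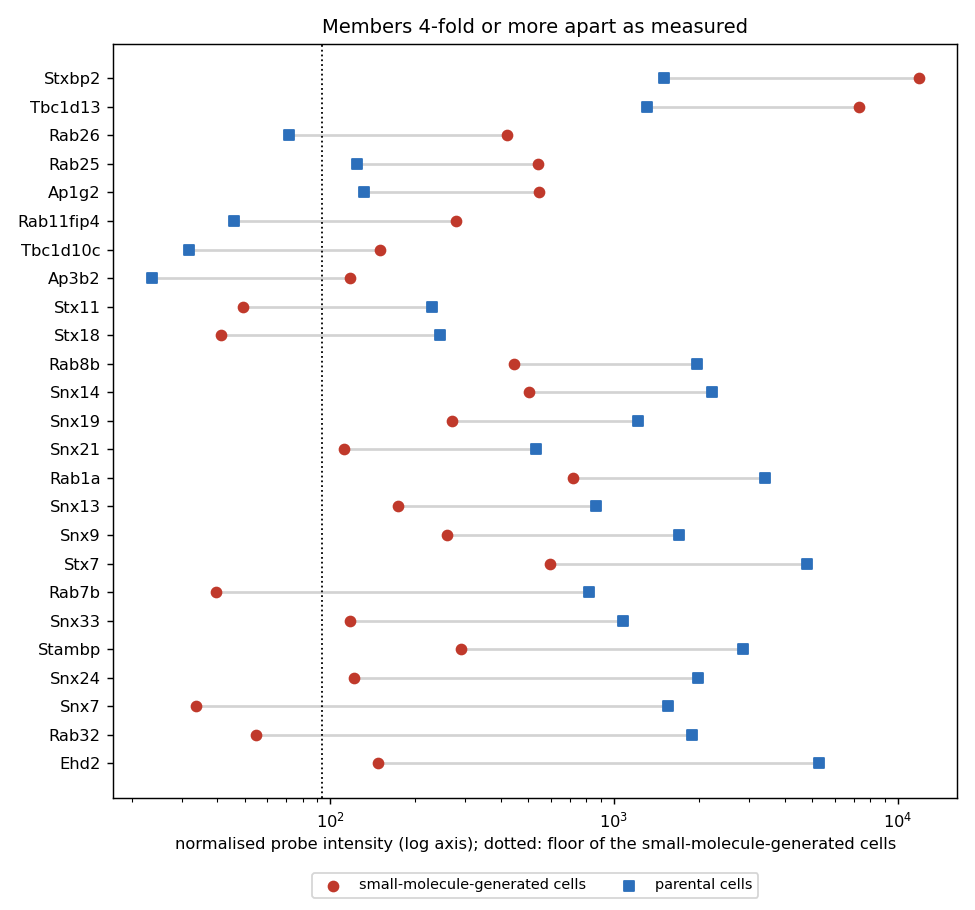
Normalised intensity (log axis) of the 25 genes that were 4-fold or more apart as measured, in SMG cells (red circles) and parental cells (blue squares). Rows run from the highest to the lowest difference, the order using the floor in place of lower values, and the dotted line is the floor of the SMG cells. The 8 upper genes are brighter in SMG cells and the 17 lower ones in parental cells.

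The promoters of these 5 genes, the furthest apart in each direction, are shown to set the start sites of genes higher and lower in SMG cells side by side. Each run is 300 bases, 250 before to 50 after the most upstream start, 5′ to 3′ on the gene's strand, from RefSeq on GRCm38.p6. They lie at chr8:3630859-3631158 (plus strand, Stxbp2), chr2:30133496-30133795 (plus strand, Tbc1d13), chr7:15967486-15967785 (minus strand, Ehd2), chr10:10558158-10558457 (minus strand, Rab32) and chr3:117868887-117869186 (minus strand, Snx7). Capitals mark matches on either strand to 9 words, none of which contains another. These were GGGCGG as the GC box, with CCAAT as the box of that name, and TATAAA as the TATA box. The E-box was searched as CACGTG, the ETS site as CCGGAA, and the core of NRF1 as GCGCATGC. The octamer was searched as ATTTGCAT, the CRE core as TGACGTCA, and the AP-1 core as TGACTCA.
Stxbp2: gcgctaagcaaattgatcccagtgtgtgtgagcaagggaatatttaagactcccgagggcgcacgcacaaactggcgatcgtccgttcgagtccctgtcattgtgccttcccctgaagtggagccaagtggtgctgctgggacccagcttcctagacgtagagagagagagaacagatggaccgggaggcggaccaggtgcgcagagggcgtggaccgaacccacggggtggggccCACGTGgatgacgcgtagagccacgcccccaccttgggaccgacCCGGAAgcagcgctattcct
Tbc1d13: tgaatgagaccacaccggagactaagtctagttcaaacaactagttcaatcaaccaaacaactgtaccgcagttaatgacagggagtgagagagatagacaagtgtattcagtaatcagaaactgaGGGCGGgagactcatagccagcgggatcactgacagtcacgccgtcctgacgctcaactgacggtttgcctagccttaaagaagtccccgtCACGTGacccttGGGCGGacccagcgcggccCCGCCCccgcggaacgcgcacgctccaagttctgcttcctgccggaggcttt
Ehd2: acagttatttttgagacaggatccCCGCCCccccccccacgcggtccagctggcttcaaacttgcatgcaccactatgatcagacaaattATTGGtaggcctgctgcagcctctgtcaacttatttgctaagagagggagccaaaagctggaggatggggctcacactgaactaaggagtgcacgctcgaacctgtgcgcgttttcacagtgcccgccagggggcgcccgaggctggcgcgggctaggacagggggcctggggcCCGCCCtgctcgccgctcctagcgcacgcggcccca
Rab32: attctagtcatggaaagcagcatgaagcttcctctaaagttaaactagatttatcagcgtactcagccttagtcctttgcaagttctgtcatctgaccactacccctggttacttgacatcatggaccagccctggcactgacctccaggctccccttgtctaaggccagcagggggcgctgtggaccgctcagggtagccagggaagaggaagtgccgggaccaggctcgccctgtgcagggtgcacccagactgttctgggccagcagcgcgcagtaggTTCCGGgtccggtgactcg
Snx7: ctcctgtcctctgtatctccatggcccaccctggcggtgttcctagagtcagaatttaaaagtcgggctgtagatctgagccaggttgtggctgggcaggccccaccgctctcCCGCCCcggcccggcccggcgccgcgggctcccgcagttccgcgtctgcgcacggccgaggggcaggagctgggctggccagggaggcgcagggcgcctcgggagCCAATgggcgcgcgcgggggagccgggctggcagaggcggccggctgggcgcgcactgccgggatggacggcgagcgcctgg
Stxbp2 and Tbc1d13, both higher, each held 1 E-box. That word was found in 7.24% of all 27025 promoters of this length. It was found in 10.4% of the promoters of 7723 other genes of the array above the floor. The windows of Ehd2, Rab32 and Snx7 held none. GC boxes, found in 35.9% of all promoters and 62.3% of those of other array genes, occurred 3 times for Tbc1d13, 2 times for Ehd2 and once for Snx7. The ETS word, found in 15.2% of all promoters and 26.5% of those of other array genes, occurred once each for Stxbp2 and Rab32. The CCAAT word, found in 38.0% and 38.8% of them, occurred once each for Ehd2 and Snx7. A match describes the letters of the window and shows no binding.

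A promoter was listed for 135 of the 177 genes. Among the 128 of these above the floor, GC boxes were present in 70.3% and the ETS word in 33.6%, against 62.3% and 26.5% of the promoters of 7723 other genes of the array above the floor. Their median GC content was 62.2%, beside 60.3% for those other genes. E-boxes were found in 2 of 12 genes higher in SMG cells, in 17 of 79 genes within 2-fold, and in 0 of 37 lower genes. Among the other genes of the array, E-boxes stood in 11.1% of higher, 10.1% of genes within 2-fold and 10.5% of lower promoters. These shares are descriptions without a test. The 19 genes with the E-box included Rab5a, Rab21, Vps16, Vps26a, Vps33a and Stx6, besides 6 of the Tbc1d family.

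Sorting nexins, which bind endosomal phosphoinositides through their PX domain, were lower as a group. Of 26 measured genes 14 (53.8%) were 2-fold or more lower, beside 22.6% of all genes, and 1 (3.85%) was higher, beside 22.1%, with a median log2 difference of -1.13. Snx7 has a partner in Snx4, which recycles cargo from early endosomes and acts in autophagy. Snx4 was at 2654 in SMG cells and 6097 in parental cells, 2.30-fold lower, and Snx30, the closest relative of Snx7, was at 135 in SMG cells and 234 in parental cells, within 2-fold. Snx24, a protein of little beyond the PX domain, was at 122 in SMG cells and 1983 in parental cells, 16.3-fold lower.

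Snx9 and Snx33 encode nexins with an SH3 domain that act with dynamin at endocytic pits. Snx33 was at 117 in SMG cells and 1077 in parental cells, 9.19-fold lower. Snx9 was at 259 in SMG cells and 1690.0 in parental cells, 6.53-fold lower. Both genes of this subfamily that were measured were thus lower.

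The measured nexins with a PXA domain, most of which also carry an RGS domain, were all lower. Snx13 was at 174 in SMG cells and 867 in parental cells over 2 probes, 4.98-fold lower. As measured its probes were 7.23-fold and 3.43-fold lower. The first was under the floor in SMG cells (29.9 in SMG cells against 216 in parental cells), so its fold is uncertain. Snx14 was at 501 in SMG cells and 2217 in parental cells, 4.43-fold lower. Snx19 was at 269 in SMG cells and 1215 in parental cells, 4.52-fold lower, and Snx25, at 389.7 in SMG cells and 1441 in parental cells, was 3.70-fold lower. The 4 genes of this subfamily lay between 3.70-fold and 4.98-fold lower, a narrow range beside the probe error. The value of Snx13 rests partly on its probe under the floor.

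Among nexins that work with retromer the values were split. Snx3, which sends the Wnt carrier Wls back to the Golgi, was at 2714 in SMG cells and 8619 in parental cells, 3.18-fold lower. Snx2, a BAR-domain nexin of the tubules that carry mannose 6-phosphate receptors, was at 2191 in SMG cells and 6225 in parental cells, 2.84-fold lower. Its partners differed by less than 2-fold: Snx1 was at 3066 in SMG cells and 5585 in parental cells, Snx5 at 2173 in SMG cells and 1801 in parental cells, and Snx6 at 8619 in SMG cells and 7023 in parental cells. Snx27, which recycles receptors with PDZ-binding tails, was at 631 in SMG cells and 1318 in parental cells, 2.09-fold lower, at the edge of the 2-fold rule. Snx17, which recycles integrins and LRP1, was the nexin nearest to no difference, at 15307 in SMG cells and 14513 in parental cells, followed by Snx32 at 198 in SMG cells and 174 in parental cells.

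Of the nexins of the PX-B type, Snx21 was at 112 in SMG cells and 530.3 in parental cells, 4.72-fold lower. Snx20, which binds the leukocyte adhesion molecule PSGL-1, was at 79.8 in SMG cells and 238 in parental cells, at least 2.55-fold lower. The only sorting nexin 2-fold or more higher was Snx10, known for its need in osteoclasts, at 3574 in SMG cells and 1299.5 in parental cells, 2.75-fold higher. The remaining genes (Snx8, Snx11, Snx15, Snx16 and Snx29) lay between log2 differences of -0.52 and 0.83. The 2 probes of Snx16 pointed in opposite directions, 2.01-fold higher and 1.47-fold lower.

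Retromer selects cargo for return to the Golgi or the surface, and retriever is a related complex that shares the subunit encoded by Vps29. All 4 measured subunits had lower values in SMG cells, where 45.8% of all genes lay below 0. Past 2-fold were 2 of them (50%, beside 22.6% of all genes). Vps35l, the retriever scaffold, was at 889 in SMG cells and 2697 in parental cells, 3.03-fold lower. Vps29 was at 6665 in SMG cells and 13610.4 in parental cells, 2.04-fold lower. The cargo-binding arrestin-like subunits differed by less, with Vps26a at 5573 in SMG cells and 9965 in parental cells and Vps26b at 632 in SMG cells and 777 in parental cells.

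The 4 EHD ATPases, which remodel membranes of caveolae and recycling tubules, were split. Beside the lower Ehd2 described above, Ehd1, which drives exit from the recycling endosome, was at 4459 in SMG cells and 1753 in parental cells, 2.54-fold higher. Ehd4 was at 2679 in SMG cells and 1398 in parental cells, just under 2-fold higher. Ehd3 was under the floor in SMG cells (42.7 in SMG cells against 135 in parental cells) and its bound was only at least 1.44-fold lower. Genes of caveolae, from a list outside the name rule chosen with earlier results of these data known, went with Ehd2. Cav1, the main coat protein of caveolae, was at 179.7 in SMG cells and 36558 in parental cells, 203-fold lower. The coat gene Cavin3 was at 194 in SMG cells and 10519 in parental cells, 54.3-fold lower. Cav2 was under the floor in SMG cells (32.8 in SMG cells against 167 in parental cells), at least 1.79-fold lower.

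**Figure D3:**
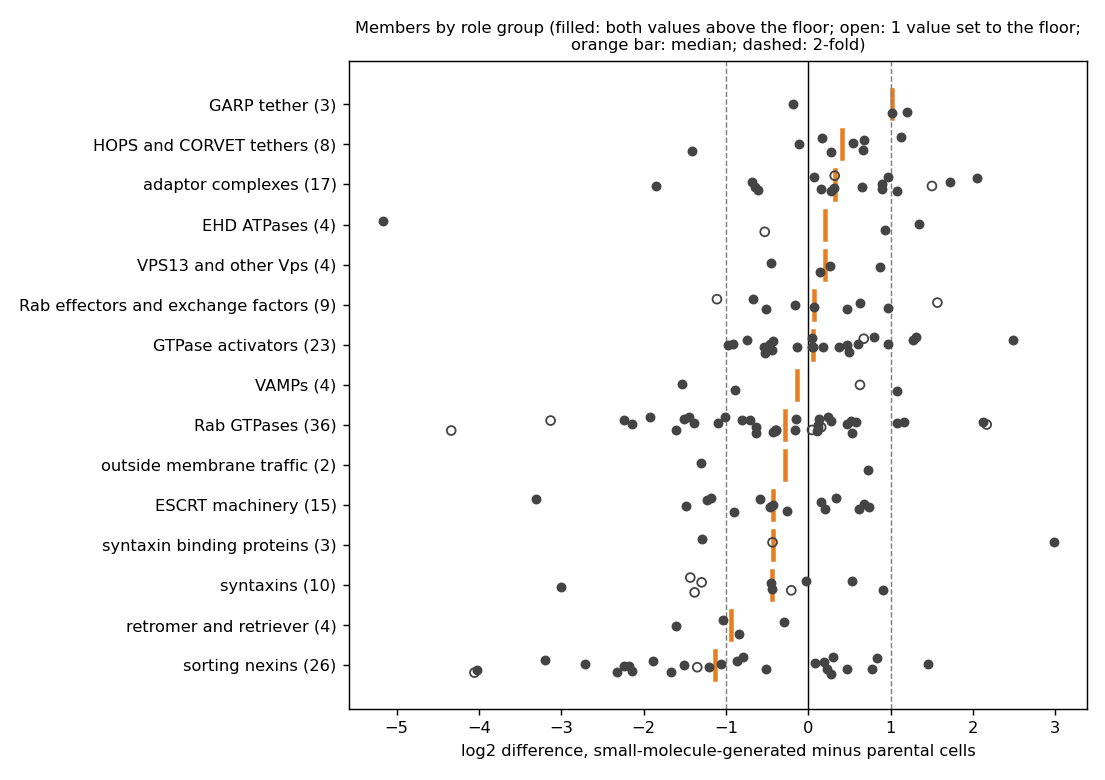
Log2 difference, SMG minus parental cells, of each gene above the floor, by role group with the number of genes in parentheses. Filled points have both values above the floor, open points have 1 value set to the floor, orange bars are the medians of the values drawn, and dashed lines mark 2-fold. Sorting nexins have the lowest median, and the GTPase activators as plotted all lie above the lower dashed line.

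ESCRT machinery, which sorts ubiquitinated receptors into multivesicular bodies, had 4 of 15 genes (26.7%) lower, near the 22.6% of all genes. None was 2-fold higher, beside 22.1% of all genes, and the median log2 difference was -0.42. Stambp (AMSH), a deubiquitinase that trims ubiquitin from receptors at ESCRT-0, was at 289 in SMG cells and 2851 in parental cells, 9.87-fold lower. The ATPases that take ESCRT-III filaments apart were both lower: Vps4a was at 1480.0 in SMG cells and 3349 in parental cells, 2.26-fold lower, and Vps4b at 2054 in SMG cells and 4808 in parental cells, 2.34-fold lower. Vps37c, a subunit of ESCRT-I, was at 364 in SMG cells and 1019.9 in parental cells, 2.80-fold lower.

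The other 11 genes of this group were within 2-fold. Hgs, the ubiquitin-binding subunit of ESCRT-0, was at 5411 in SMG cells and 3247 in parental cells. Vps28 of ESCRT-I was at 6620.1 in SMG cells and 8875 in parental cells. Vps36 of ESCRT-II was at 7956 in SMG cells and 7158 in parental cells, the gene of this group nearest to no difference, and Vps37b of ESCRT-I was at 577 in SMG cells and 501 in parental cells. Chmp1a of ESCRT-III was at 1635 in SMG cells and 1952 in parental cells. The other genes (Chmp4b, Chmp5, Chmp6, Chmp7, Vps25 and Vps37d) lay between log2 differences of -0.90 and 0.68.

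Rab GTPases were lower in 12 (33.3%, beside 22.6% of all genes) and higher in 4 (11.1%, beside 22.1%) of the 36 genes above the floor, with a median log2 difference of -0.28. Rab7b, which takes part in transport from endosomes to the trans-Golgi network, was under the floor in SMG cells (39.7 in SMG cells against 818 in parental cells), at least 8.75-fold lower. Rab7b and Rab32 are both known from macrophages; 3 of the 4 macrophage markers were lower and the other, Ptprc, was within 2-fold at 118 in SMG cells and 165 in parental cells, and the part of such cells in these values was not tested.

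Of the lower Rabs, 5 act at the endoplasmic reticulum, the Golgi or in transport to the surface. Rab1a, needed for transport from the endoplasmic reticulum to the Golgi, was at 719 in SMG cells and 3393 in parental cells, 4.72-fold lower. Rab2a, which acts on the same route and on late endosomes, was at 4529 in SMG cells and 12349 in parental cells, 2.73-fold lower. Rab6a, a Rab of traffic within and from the Golgi, was at 3369 in SMG cells and 7174 in parental cells, 2.13-fold lower. The Golgi Rab that binds the autophagy protein ATG16L1, Rab33b, was at 1583 in SMG cells and 4147 in parental cells, 2.62-fold lower. Rab8b, of transport to the surface, was at 446 in SMG cells and 1961 in parental cells, 4.39-fold lower. Other Rabs of these compartments, among them Rab1b, Rab2b, Rab8a and Rab10, were within 2-fold, and Rab6b was higher.

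Further lower Rabs act at endosomes or cilia. Rab31, which moves mannose 6-phosphate receptors from the trans-Golgi network to endosomes, was at 1154 in SMG cells and 4359 in parental cells, 3.78-fold lower. Rab34, of macropinocytosis and cilium formation, was at 1349.5 in SMG cells and 4122 in parental cells, 3.05-fold lower. Rab28, a Rab linked to cilia and photoreceptors, was at 2265 in SMG cells and 6466 in parental cells, 2.85-fold lower. Rab14, which acts between early endosomes and the Golgi, was at 1538 in SMG cells and 3103 in parental cells, 2.02-fold lower, at the edge of the rule. Rab39b was under the floor in SMG cells (43.4 in SMG cells against 123 in parental cells), with a bound of only at least 1.31-fold lower.

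The 4 higher Rabs were Rab25, Rab26, Rab27b and Rab6b. Rab25, a relative of Rab11 in epithelial recycling endosomes, was at 541 in SMG cells and 124 in parental cells, 4.35-fold higher. Rab26, of secretory granules, was under the floor in parental cells (421 in SMG cells against 71.8 in parental cells), at least 4.49-fold higher. Rab27b, which docks secretory granules and exosome-bearing endosomes, was at 8284 in SMG cells and 3697 in parental cells, 2.24-fold higher. Rab6b, an isoform of Rab6 enriched in brain, was at 629 in SMG cells and 298 in parental cells, 2.11-fold higher. Epithelial markers, as given above, were also higher in SMG cells. Of 6 neuronal markers 3 were higher and 1 was lower, with sums of 4751 in SMG cells and 1686 in parental cells.

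The other 20 Rabs above the floor were within 2-fold. Rab5a, the master Rab of early endosomes, was at 1343 in SMG cells and 1502 in parental cells. Rab4a and Rab4b, of rapid recycling, were at 2405 in SMG cells and 1741 in parental cells and at 2496 in SMG cells and 2290.1 in parental cells. Rab11a, of slow recycling, was at 3264 in SMG cells and 5329 in parental cells, and Rab22a at 4124 in SMG cells and 3758 in parental cells. Rab9, of late endosomes, was at 2338 in SMG cells and 4095 in parental cells. Nearest to no difference were Rab15 at 492 in SMG cells and 457 in parental cells and Rab2b at 857 in SMG cells and 789.9 in parental cells. The others above the floor (Rab1b, Rab3a, Rab8a, Rab10, Rab11b, Rab13, Rab17, Rab21, Rab29, Rab36, Rab40c and Rab44) lay between log2 differences of -0.64 and 0.83. Of the 2 probes of Rab17, 1 was under the floor in both samples. The other was at 318 in SMG cells and 100 in parental cells, 3.18-fold higher. With the brightest probe per gene 5 of 36 Rabs were higher, beside 22.7% of all genes.

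Close paralogues were then set side by side, as all groups of genes whose symbols differ only in a final letter. There were 15 such groups with 33 genes, and in 12 of them at least 2 genes were above the floor. In 6 of the 12 the genes lay on opposite sides of no difference. Since 45.8% of all genes lay below 0, unrelated genes would often do so too, and the count is not read as a trait of paralogues. Under median and lowess centring it was again 6, with Rab4 in place of Rab2, and with the brightest probe per gene it was 5, without Rab8. Rab1a had a log2 difference of -2.24 and Rab1b one of 0.52 (1402 in SMG cells and 977 in parental cells). Rab8b was at -2.14 on this scale and Rab8a at 0.28, although the 2 probes of Rab8a disagreed in direction (1.61-fold higher and 1.09-fold lower). Rab6a and Rab6b, at -1.09 and 1.08, were past 2-fold in opposite directions, although Rab6b was within 2-fold under median centring (0.95), lowess centring (1.00, just under 2-fold) and the offset of 50 (0.96). Rab2a stood at -1.45 with Rab2b at 0.12, and Rab11a at -0.71 with Rab11b at 0.24. The sixth group was Vps37, in which Vps37c was lower while Vps37b and Vps37d were within 2-fold. By contrast Vps4a and Vps4b, at -1.18 and -1.23, differed by 0.05. No error between cultures was available for these differences, and the probe error applies to each gene. Rab1b, Rab2b, Rab8a, Rab11a and Rab11b lay within 1 probe SD (1.05) of no difference.

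**Figure D4:**
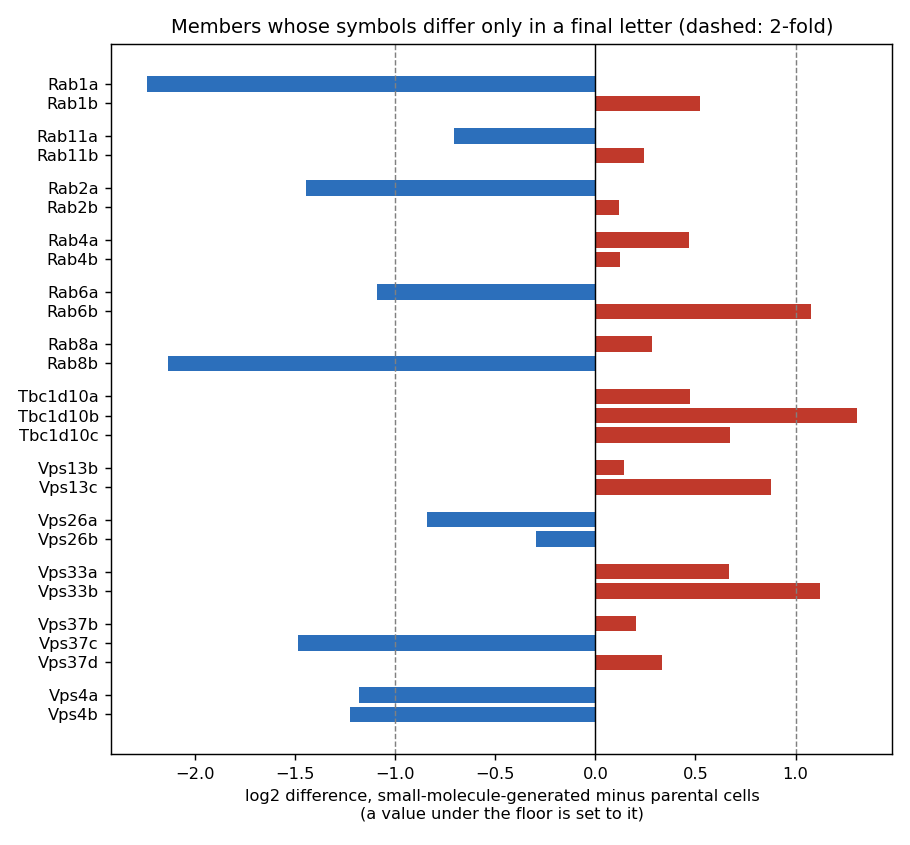
Log2 difference, SMG minus parental cells, of genes above the floor in 12 groups of paralogues, with lower values raised to the floor; red bars are above 0, blue bars below 0, and dashed lines mark 2-fold. Rab1a, Rab2a, Rab6a and Rab11a lie below 0 with their b-paralogues above it, while for Rab8 it is Rab8b that lies below.

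GTPase activators of Rabs had 4 of 23 genes above the floor (17.4%) 2-fold or more higher, beside 22.1% of all genes, and 0 lower, beside 22.6%, with a median log2 difference of 0.05. The count of lower genes was 2 under median centring, lowess centring and the brightest probe per gene, drawn from Rab3gap2, Tbc1d19 and Tbc1d31. Of all genes, 24.9%, 24.5% and 22.7% were lower under these settings. Besides Tbc1d13, Tbc1d10b, a GTPase activator for Rab27 and Rab35, was at 3859 in SMG cells and 1561 in parental cells, 2.47-fold higher. Tbc1d17, which takes part in autophagy and receptor recycling, was at 277 in SMG cells and 115 in parental cells, 2.41-fold higher. Tbc1d10c was under the floor in parental cells (149.7 in SMG cells against 31.8 in parental cells), with a bound of at least 1.60-fold higher. Tbc1d20, a GTPase activator that switches Rab1 off, was at 6809.6 in SMG cells and 3486 in parental cells, just within 2-fold. Both subunits of the Rab3 GTPase activator were within 2-fold. Rab3gap1 was at 4366 in SMG cells and 4210.0 in parental cells, and Rab3gap2 at 474 in SMG cells and 934 in parental cells over 2 probes. Tbc1d24 (198 in SMG cells and 192 in parental cells) and Rabgap1l (495 in SMG cells and 478 in parental cells) were the nearest to no difference. The 2 probes of Tbc1d31 disagreed, 1.49-fold higher and 4.19-fold lower, so its direction is not settled. The other 13 (Rabgap1, Tbc1d1, Tbc1d2b, Tbc1d7, Tbc1d9, Tbc1d10a, Tbc1d14, Tbc1d15, Tbc1d16, Tbc1d19, Tbc1d22a, Tbc1d23 and Tbc1d25) lay between -0.91 and 0.80.

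Rab effectors and exchange factors included 1 higher (11.1%, beside 22.1% of all genes) and 1 lower gene (11.1%, beside 22.6%) among 9. With the column median as the floor, 0 of 5 were higher and 0 lower, where 25.4% and 25.6% of all genes were. Rab11fip4, an effector of Rab11, was under the floor in parental cells (278 in SMG cells against 45.9 in parental cells), at least 2.97-fold higher. Rab3il1, an exchange factor, was at 70.3 in SMG cells and 202 in parental cells, at least 2.16-fold lower. Rabep1 and Rabep2, which link Rab5 to Rab4, were at 172 in SMG cells and 245 in parental cells and at 1496 in SMG cells and 1419.7 in parental cells. Rab3ip (Rabin8), the exchange factor of Rab8, was at 1239 in SMG cells and 631 in parental cells, with probes 3.05-fold and 1.27-fold higher. Rabepk, an effector of Rab9, was at 157 in SMG cells and 176 in parental cells, and Rab11fip1, Rab11fip3 and Rab11fip5 were within 2-fold too.

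Tethers hold vesicles before fusion, and 3 of 11 were higher (27.3%, beside 22.1% of all genes) and 1 lower (9.09%, beside 22.6%), with a median log2 difference of 0.54. Under median and lowess centring Vps51 and Vps33b were within 2-fold, which left 1 higher, beside 19.4% and 19.9% of all genes. Of the GARP complex, which receives endosomal vesicles at the Golgi, Vps51 was at 6150.3 in SMG cells and 3033 in parental cells, 2.03-fold higher. Vps54 was at 2959 in SMG cells and 1284 in parental cells, 2.31-fold higher, and Vps53 at 1759 in SMG cells and 2003 in parental cells. Of the late endosomal HOPS complex and the early endosomal CORVET complex, the CORVET subunit Vps8 was the lower one, at 1142 in SMG cells and 3036 in parental cells, 2.66-fold lower. Vps33b, a paralogue of the shared subunit Vps33a, was at 1808 in SMG cells and 829.6 in parental cells, 2.18-fold higher. The HOPS subunits Vps39 (455 in SMG cells and 377 in parental cells) and Vps41 (12618 in SMG cells and 7922 in parental cells) were within 2-fold. So were the subunits common to both complexes, Vps11, Vps16, Vps18 and Vps33a, between log2 differences of -0.11 and 0.67. Nearest to no difference were Vps18 at 803 in SMG cells and 869 in parental cells and Vps16 at 4975 in SMG cells and 4433 in parental cells. The remaining Vps genes above the floor were within 2-fold too, namely the lipid transporters Vps13b (1298 in SMG cells and 1175 in parental cells) and Vps13c, the syntaxin regulator Vps45 (972 in SMG cells and 812 in parental cells), and Vps9d1.

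SNAREs known from late endosomes had lower values. Among 10 syntaxins 5 (50%, beside 22.6% of all genes) were lower and none 2-fold higher, beside 22.1% of all genes. Their median log2 difference was -0.75, or -0.44 when those under the floor were raised to it. With values so raised, 4 (40%) were lower, beside 20.8% of all genes. With the column median as the floor, only 1 of 6 was lower, where 25.6% of all genes were, and the median was -0.23. Stx7, a syntaxin of late endosomes, was at 598 in SMG cells and 4793 in parental cells, 8.02-fold lower. Vamp8, its partner on the opposite membrane, was at 2303 in SMG cells and 6669.8 in parental cells, 2.90-fold lower. Vti1b, a further member of that SNARE complex taken from the list outside the name rule, was at 1733 in SMG cells and 4518 in parental cells, 2.61-fold lower. The 3 measured genes of this complex were thus all 2-fold or more lower.

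Other syntaxins lay near the floor. Stx18, of the endoplasmic reticulum, was at 41.3 in SMG cells and 243 in parental cells, at least 2.60-fold lower. Stx1a, of synaptic vesicle release, was at 72.8 in SMG cells and 252 in parental cells, at least 2.70-fold lower. Stx11, of granule release in lymphocytes, was at 49.5 in SMG cells and 229 in parental cells over 2 probes, at least 2.45-fold lower. Stx2 was under the floor in SMG cells (51.8 in SMG cells against 108 in parental cells), with a bound of only at least 1.15-fold lower. Within 2-fold were the Golgi and endosomal syntaxins Stx5a, Stx6, Stx12 and Stx16, with Stx6 nearest to no difference at 305 in SMG cells and 311 in parental cells and then Stx12 at 4464 in SMG cells and 6045 in parental cells. The surface syntaxin Stx3 was at 788 in SMG cells and 419 in parental cells, a little under 2-fold higher.

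Vamp2, the vesicle SNARE of regulated secretion, was the higher VAMP, at 1173 in SMG cells and 556 in parental cells, 2.11-fold higher. Vamp4, of the trans-Golgi network, was at 157 in SMG cells and 291 in parental cells, and Vamp1 at 145 in SMG cells and 80.7 in parental cells. Of the syntaxin binding proteins, Stxbp2 had the largest difference towards SMG cells of the 168 genes above the floor, and its partners include the products of Stx3 and Stx11. Stxbp4 was at 347 in SMG cells and 851 in parental cells, 2.45-fold lower, and Stxbp5, an inhibitor of SNARE assembly, was at 84.4 in SMG cells and 126 in parental cells.

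Adaptor complexes, which link cargo to clathrin coats, had 5 of 17 genes higher (29.4%, beside 22.1% of all genes) and 1 lower (5.88%, beside 22.6%), with a median log2 difference of 0.65, or 0.32 when those under the floor were raised to it; 4 (23.5%) were then higher, beside 20.5% of all genes. Ap1g2, a gamma subunit of AP-1, was at 544 in SMG cells and 131 in parental cells, 4.14-fold higher. Ap1s3, a small subunit of AP-1, was at 266 in SMG cells and 81.7 in parental cells, at least 2.83-fold higher. Ap3s2, a small subunit of AP-3, was at 1424 in SMG cells and 431 in parental cells, 3.30-fold higher. Ap2b1, the beta subunit of the endocytic AP-2, was at 6587 in SMG cells and 3108 in parental cells, 2.12-fold higher. Ap3b2, the neuronal beta subunit of AP-3, was at 117 in SMG cells and 23.6 in parental cells, with a bound of at least 1.25-fold higher.

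The lower adaptor gene was Ap4b1 of AP-4, which works without clathrin, at 197 in SMG cells and 706 in parental cells, 3.59-fold lower. Its partner Ap4m1 was at 545 in SMG cells and 872 in parental cells. The other measured AP-2 subunits were within 2-fold: the cargo-binding Ap2m1 was at 3691 in SMG cells and 5634 in parental cells while Ap2a1 was at 1648 in SMG cells and 885 in parental cells and Ap2s1 at 8537 in SMG cells and 7038 in parental cells. Ap1m1 (3709 in SMG cells and 3538 in parental cells) and Ap1g1 (1422 in SMG cells and 1279 in parental cells) were nearest to no difference. Ap1b1, Ap1s1, Ap1s2, Ap3d1 and Ap3m2 were within 2-fold as well.

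The name rule also took in genes whose known role lies outside membrane traffic. Rab5if, a factor of the endoplasmic reticulum and of mitochondrial complex assembly, was at 8599.8 in SMG cells and 21169.8 in parental cells, 2.46-fold lower. Vps72, a subunit of chromatin remodelling complexes, was at 4023 in SMG cells and 2430.4 in parental cells.

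Genes of the same pathway outside the name rule, a list of 89, were measured in 61 cases. The list was chosen with earlier results of these data known, so its shares are descriptions only. All 61 were above the floor in either sample or both, and 9 (14.8%) were higher, beside 22.1% of all genes, and 25 (41%) lower, beside 22.6%, with a median log2 difference of -0.40. Several effectors that bind Rab5 or its lipid PI3P at early endosomes were lower. Eea1, the tether of early endosomes, was at 133 in SMG cells and 1663 in parental cells, 12.5-fold lower. Rbsn (rabenosyn-5) was at 129.6 in SMG cells and 989 in parental cells, 7.63-fold lower. Zfyve16 (endofin) was at 112 in SMG cells and 450.1 in parental cells, 4.03-fold lower, and Appl1, an adaptor of signalling endosomes, was at 266 in SMG cells and 942 in parental cells, 3.54-fold lower.

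Exchange factors that activate Rab5 were mixed. Rin2 was at 195 in SMG cells and 964 in parental cells, 4.95-fold lower, and Rin1 at 1209.8 in SMG cells and 3917 in parental cells, 3.24-fold lower. Rabgef1 (Rabex-5), in contrast, was at 417 in SMG cells and 264 in parental cells, within 2-fold. Pik3c3, the kinase that makes PI3P, was at 1712 in SMG cells and 1618 in parental cells, and its regulatory subunit Pik3r4 at 1406 in SMG cells and 641 in parental cells, 2.19-fold higher. Rabggta, a subunit of the enzyme that attaches lipid to Rabs, was at 1357 in SMG cells and 496 in parental cells, 2.73-fold higher. Mon1b and Mon1a act in exchange factors that activate Rab7. Mon1b was at 127 in SMG cells and 332 in parental cells, 2.61-fold lower. Mon1a was at 59.8 in SMG cells and 131 in parental cells, with a bound of at least 1.40-fold lower. Wdfy1, which binds PI3P, was at 84.4 in SMG cells and 193 in parental cells, at least 2.07-fold lower. Lower values of several effectors thus stood beside a Rab5a value within 2-fold.

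Partners of the other groups went both ways. Of 7 measured ESCRT partners 3 were lower (42.9%, beside 22.6% of all genes) and none was higher (beside 22.1%). Among the lower were Pdcd6ip (ALIX) at 227 in SMG cells and 691 in parental cells, 3.04-fold lower, and Ist1 at 1181 in SMG cells and 3333 in parental cells, 2.82-fold lower. Tsg101, a subunit of ESCRT-I, was at 59.0 in SMG cells and 119 in parental cells, with a bound of at least 1.28-fold lower. Of 10 SNARE partners 4 were lower (40%, beside 22.6% of all genes) and 1 higher (10%, beside 22.1%). The surface SNARE Snap23 was at 875 in SMG cells and 2741 in parental cells, 3.13-fold lower. Its neuronal relative Snap25 was at 397 in SMG cells and 189 in parental cells, 2.10-fold higher. Napa and Napg, which help take SNARE complexes apart, were at 63.1 in SMG cells and 259 in parental cells, at least 2.77-fold lower, and at 994 in SMG cells and 2527 in parental cells, 2.54-fold lower. Of 13 genes of WASH and the Commander complex 3 were lower (23.1%, near the 22.6% of all genes) and 1 higher (7.69%, beside 22.1%). Commd3 was at 1611 in SMG cells and 9007 in parental cells, 5.59-fold lower. Commd8 was at 52.3 in SMG cells and 240.3 in parental cells, at least 2.57-fold lower, and Commd9 at 820.2 in SMG cells and 395 in parental cells, 2.07-fold higher. Washc3, a subunit of the actin-nucleating WASH complex, was at 817 in SMG cells and 1986 in parental cells, 2.43-fold lower.

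Clathrin and coat partners were higher in 5 (45.5%, beside 22.1% of all genes) and lower in 3 (27.3%, beside 22.6%) of 11 cases. The Golgi adaptor Gga3 was at 2175 in SMG cells and 539 in parental cells, 4.04-fold higher, and Gga2 at 923 in SMG cells and 312 in parental cells, 2.96-fold higher. The endocytic epsins were also higher, Epn1 at 6604 in SMG cells and 2048 in parental cells, 3.22-fold higher, and Epn2 at 1874 in SMG cells and 772 in parental cells, 2.43-fold higher. Of the amphiphysins, Amph was at 557 in SMG cells and 144 in parental cells, 3.87-fold higher, whereas Bin1 was at 918 in SMG cells and 8882 in parental cells, 9.68-fold lower. Eps15, a scaffold of endocytic pits, was at 679 in SMG cells and 1537 in parental cells, 2.26-fold lower, and Dnm1, the neuronal dynamin, at 308 in SMG cells and 884 in parental cells, 2.87-fold lower. The clathrin heavy chain gene Cltc was at 5751 in SMG cells and 8983 in parental cells, within 2-fold.

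**Figure D5:**
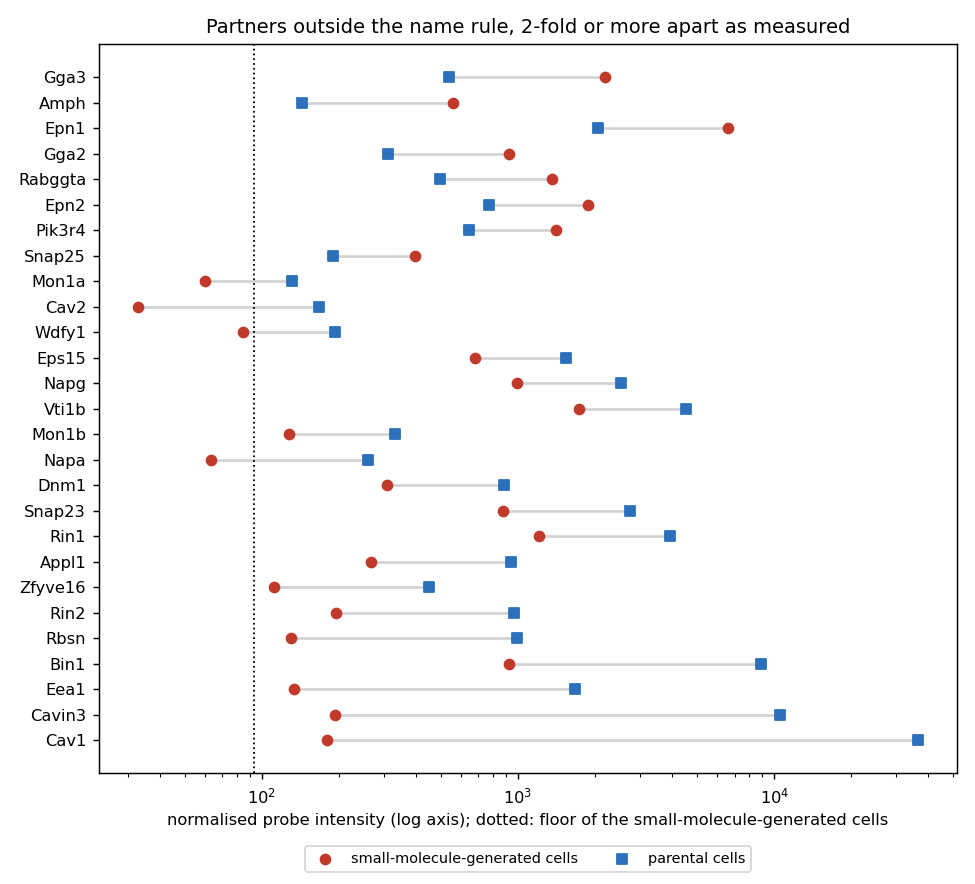
Normalised intensity (log axis) of 27 SNARE, clathrin, caveolar and Rab-cycle partners outside the name rule that were 2-fold or more apart as measured, in SMG cells (red circles) and parental cells (blue squares), ordered by their difference. Cav1, Cavin3 and Eea1 fill the 3 bottom rows with the largest gaps, and the dotted line is the floor of the SMG cells.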

How the data were processed

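Total RNA was extracted with Trizol, column-purified, amplified and coupled to Cy5, per the labels' protocols, and read on a Phalanx OneArray v2 for mouse. The authors deposited normalised, linear intensities of probes, from 16 to 65494 in SMG cells and from 15 to 65495 in parental cells, with medians of 305 and 304. Scanner, background correction, normalisation, probe filter and any centring are not given in the sources used. All values are multiples of 1/18 within 0.001; whether a column averages the 3 replicates was not settled. Equal quantiles remove differences in total signal.

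Of 13989 probes 12380 had 1 symbol, 0 several and 1609 none here; 12364 were matched to RefSeq (GRCm38.p6) by Entrez identifier. Intensities were brought to log2 and probes averaged per gene (pandas 2.3.3). The number of arrays limits precision. The computation was tested on simulated data. Members, gene lists, motifs and the rule for named genes (all members 2-fold or more apart, the 2 nearest to no difference per role group, partners 2-fold or more apart) were chosen with earlier results of these data known. Alternatives were other scalings, probe, offset, floor and size rules.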

Additional observations from a re-analysis of the deposited data

How the results depend on the processing

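No paired analysis was possible because each group had 1 column of values, and no replicate could be left out. The count of endosomal genes 2-fold or more higher ranged from 15 to 23 and that of lower genes from 37 to 50 over the alternatives. These were median centring, quantile normalisation, lowess centring (span 0.3), an offset of 50, the brightest probe of each gene, other floors, and leaving out Rab5if and Vps72. Lowess centring gave 15 higher and 50 lower of 168, where 19.9% and 24.5% of all genes were. The brightest probe gave 23 higher of 168, beside 22.7% of all genes. The column median as the floor gave 37 lower of 139, beside 25.6% of all genes. Centring each class of probe identifiers on its own median, chosen after seeing the data, gave counts inside these ranges. At 4-fold or more the counts were 8 higher and 17 lower, by construction of that rule. The median log2 difference of -0.12 became -0.25 when centred on all genes, -0.030 with the column median as the floor, and 0.045 with no floor, so its sign is not settled. The shift of all genes removed by centring was 0.12. Of the 66 genes past 2-fold, 61 kept that call under median centring, 60 under lowess centring, 60 with the offset, 53 with the higher floor and 61 when lower values were raised to the floor. The calls of Ap2b1, Vamp2, Vps33b, Vps51 and Rab6b ended under both centrings, that of Rab27b under lowess, and those of Rab6b, Rab14, Tbc1d17, Ehd3, Rab39b and Stx2 with the offset. No endosomal gene past 2-fold turned its direction under these alternatives. A shift of 0.12 is too small to turn such a gene. Named genes outside the name rule were not examined under the other scalings, the brightest probe or the offset. Signal near the floor limits Stx2, Rab39b, Ehd3, Tbc1d10c and Ap3b2, whose bounds are under 2-fold.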

Other observations

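Receptors and membrane proteins that travel through endosomes, a list of 14 with 10 measured, had lower values in SMG cells in all 10 cases. This list too was chosen with earlier results of these data known, so its shares are descriptions only. Of all genes, 45.8% lay below 0. In the list 7 (70%) were 2-fold or more lower, beside 22.6% of all genes, and none was higher, beside 22.1%. Egfr, the epidermal growth factor receptor, was at 117 in SMG cells and 4904 in parental cells, 41.8-fold lower. Lrp1, an endocytic receptor recycled by Snx17, was at 252 in SMG cells and 6270.3 in parental cells, 24.9-fold lower. Igf2r, the large mannose 6-phosphate receptor, was at 2513 in SMG cells and 11576 in parental cells, 4.61-fold lower, and M6pr, the small one, at 2333 in SMG cells and 6815 in parental cells, 2.92-fold lower. The sorting receptor gene Sorcs2 was at 201 in SMG cells and 509.8 in parental cells, 2.53-fold lower. Of the late endosomal and lysosomal membrane proteins, Lamp2 was at 17709 in SMG cells and 56458 in parental cells, 3.19-fold lower, and Cd63 at 18389 in SMG cells and 48109 in parental cells, 2.62-fold lower, whereas Lamp1 was at 23341 in SMG cells and 24684 in parental cells. The transferrin receptor gene Tfrc, the usual marker of recycling endosomes, was at 1645 in SMG cells and 1907 in parental cells, and Sort1 at 1162 in SMG cells and 2032 in parental cells, both within 2-fold. The median log2 difference of the list was -1.47, beside 0.12 over all genes.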
